A study of Mus musculus with 16 samples.

Results

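The genes described are 10 circadian clock genes, measured in the ileum of mice fed alcohol or a control diet. They are *Arntl*, *Npas2*, *Per1*, *Per2*, *Per3*, *Cry1*, *Nr1d1*, *Nr1d2*, *Dbp* and *Tef*, taken by symbol from a count table of 21965 genes, and each one passed the filter on low counts that left 13811 genes for testing. Male C57BL/6 mice, 8 to 10 weeks old, were either wild-type (WT) or fat-1, which the sample labels write as Fat1+/-. The fat-1 mice are heterozygous for a *C. elegans* n3 fatty acid desaturase that is expressed in all tissues, and WT littermates served as controls. All mice received a Lieber-DeCarli liquid diet for 6 weeks. In EtOH mice its alcohol content was raised stepwise from 1% to 5% (v/v) and then held at 6% for 3 weeks, while pair-fed (PF) mice received maltose dextrin in place of alcohol. Each mouse gave 1 poly(A) RNA library. The PF diet was fed to 4 WT and 4 fat-1 mice, and EtOH to 3 WT and 5 fat-1 mice.

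The clock is a transcriptional feedback loop. ARNTL pairs with CLOCK or NPAS2 and activates genes through E-boxes, among them the *Per*, *Cry*, *Nr1d*, *Dbp* and *Tef* genes, and the PER and CRY proteins then repress their own activators. The NR1D receptors (REV-ERBs) repress *Arntl* through ROR elements, where the ROR receptors activate it, and DBP, TEF and HLF drive output genes through D-boxes. Transcripts of *Arntl* and *Npas2* therefore peak in antiphase to those of *Nr1d1* and *Dbp*, and in the gut the loop sets daily rhythms of digestion and absorption. Each mouse was sampled once, and the time of day of collection is not given in the sources used here, so a shift in phase and a change in mean level cannot be told apart.

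The promoter stretches below are shown because they hold letters that match the kinds of element named above. RefSeq promoter windows of 300 bases (250 before to 50 after a start site, GRCm38.p6) were found for 9 of the 10 genes, all but *Per2*, and both strands were searched. The motif is in capitals, and each stretch reads 5′ to 3′ on the strand of its gene. These 9 genes had 12 windows. Exact matches to the E-box CACGTG lay in 4 of the 12 windows, those of *Per1*, *Cry1* and *Tef*, against 7.15% of all 32807 windows. The D-box, searched as TTATGTAA or TTACGTAA and held by 1.05% of all windows, was matched in 1 of the 12, that of *Per3*, at 2 positions. The ROR element, searched as TAGGTCA or TGGGTCA and held by 6.46% of all windows, was matched in 1 of the 12. That window belonged to *Arntl*, with the match 31 bases after a start site.
Arntl, chr7:113207530-113207558, plus strand: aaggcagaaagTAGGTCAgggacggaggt
Per1, chr11:69098771-69098800, plus strand: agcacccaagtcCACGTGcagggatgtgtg
Per3, chr4:151044812-151044874, minus strand: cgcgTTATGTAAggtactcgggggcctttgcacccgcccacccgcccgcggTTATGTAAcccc
Cry1, chr10:85185097-85185126, minus strand: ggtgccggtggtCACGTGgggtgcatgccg
Tef, first start site, chr15:81802534-81802563, plus strand: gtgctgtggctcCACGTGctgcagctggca
Tef, second start site, chr15:81811264-81811293, plus strand: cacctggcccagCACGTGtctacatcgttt
These matches describe sequence only, and a missing match says no more than that the letters are not in the window.

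Levels are given in CPM, a gene's counts per megaread of library total after TMM scaling by edgeR. Library totals were 8422645 to 11438539 counts, and the member with the lowest counts, *Arntl*, had 86 to 299 per library. Several libraries stood apart in genes that mark gut segments. In fat-1 PF mice 2 and 4 the ileal bile acid transporter *Slc10a2* was at 7.58 and 3.56 CPM, against 394 CPM or more in every other mouse, and the summed level of 6 proximal small intestine genes was 11400 and 11100 CPM, against 9.55 to 3340 CPM elsewhere. In fat-1 EtOH mice 3 and 4 and WT EtOH mouse 2 the summed level of 6 large intestine genes was 11500, 12500 and 4420 CPM, against 11.7 to 124 CPM in the other mice. Fat-1 EtOH mouse 5 stood apart in 6 B-cell follicle genes, at 438 CPM summed against 1.34 to 86.9 CPM elsewhere, and had the highest sum of 6 adipocyte genes, at 526 CPM against 114 to 329 CPM. Values without some of these mice are therefore given beside many estimates of the diet comparison in fat-1 mice and beside some other results. A lower level in whole tissue cannot be told apart from fewer cells of the type that expresses the gene.

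Per length of annotated exon, the nuclear receptor *Nr1d1* was the most abundant of the 10 genes, at 44.9 ± 12 CPM per kb (SD, n = 16). It was followed by the output factor *Dbp* (31.8 ± 20 CPM per kb), *Nr1d2* (24.6 ± 3.96) and *Tef* (20.7 ± 4.95). The repressors stood lower, with *Per2* at 11 ± 3.90, *Per1* at 7.30 ± 2.04, *Cry1* at 6.76 ± 1.22 and *Per3* at 4.61 ± 1.43 CPM per kb. The activators were lowest, with *Npas2* at 4.56 ± 1.21 and *Arntl* at 2.08 ± 0.671 CPM per kb. *Tef* exceeded *Per2* and *Npas2* exceeded *Arntl* in 16 of 16 mice. *Dbp* over *Nr1d2*, *Per1* over *Cry1* and *Per3* over *Npas2* held in 9 of 16 mice each, so these neighbours did not differ beyond their spread. *Dbp* varied most, from 39.3 to 270 CPM over the 16 mice, and *Nr1d2* stayed between 88.4 and 164 CPM.

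**Figure D1:**
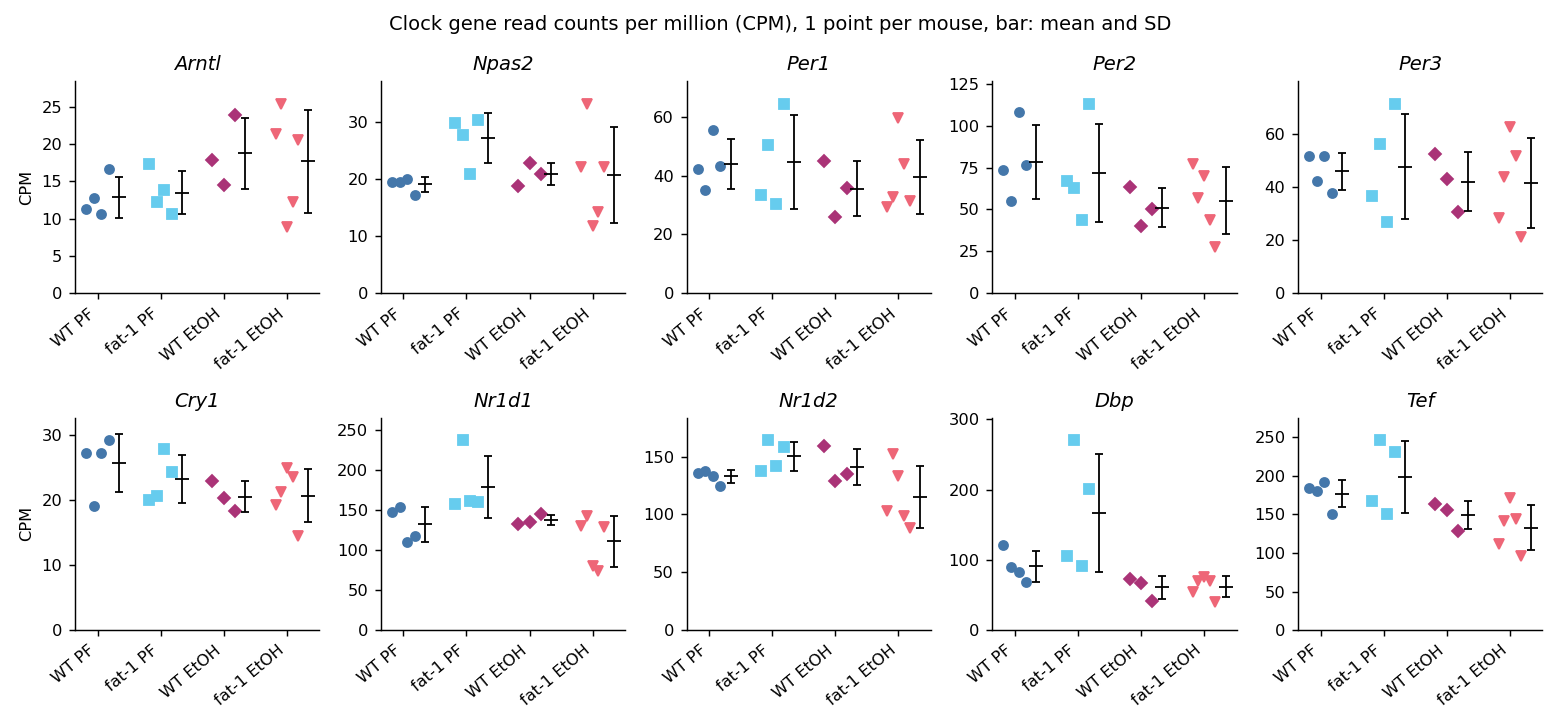
Levels of the 10 clock genes in CPM (vertical axes, from 0) in each mouse of the 4 groups, with the group mean and SD as a black bar beside the points. The 5 fat-1 EtOH mice lie between 39.3 and 75.8 CPM for *Dbp*, below the 4 fat-1 PF mice at 91.3 to 270 CPM.

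EtOH was compared with PF feeding in fat-1 mice first. Here 4 of the 10 clock genes were differentially expressed (edgeR quasi-likelihood test, adjusted p of 0.05 or less over all genes tested), and all 4 were lower in EtOH mice: *Dbp*, *Tef*, *Nr1d1* and *Nr1d2*. Of all 13811 genes, 37.4% were called in this comparison and 18.8% were called lower, so the share of clock genes called was close to the background and the share called lower was above it. The median log2 fold change was -0.38 over the 10 genes and 0.05 over all genes tested. The activators, the *Per* genes and *Cry1* did not pass the test.

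*Dbp* encodes a PAR bZIP factor that carries clock timing to output genes. It measured 106, 270, 91.3 and 201 CPM in the fat-1 PF mice and 54.2, 70.5, 75.8, 70 and 39.3 CPM in the fat-1 EtOH mice. The groups did not overlap, and the highest values belonged to fat-1 PF mice 2 and 4. *Dbp* fell 2.69-fold, a log2 fold change of -1.43 ± 0.31 (SE, adjusted p = 0.0031 by edgeR). By exact permutation of the 126 splits of these mice, two-sided p was 0.00794, the smallest these group sizes allow.

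*Tef*, a related PAR bZIP factor, measured 167, 246, 150 and 231 CPM in fat-1 PF and 112, 141, 171, 144 and 95.5 CPM in fat-1 EtOH mice. Its groups overlapped, and its highest values were again in fat-1 PF mice 2 and 4. The log2 fold change was -0.58 ± 0.18 (SE, adjusted p = 0.0187). *Hlf*, the remaining factor of this family and not among the 10 genes, measured 16.9, 49.8, 7.38 and 29.6 CPM against 6.46, 7.23, 9.43, 7.85 and 4.96 CPM. The groups of *Hlf* overlapped, and its highest values were also in fat-1 PF mice 2 and 4. *Hlf* fell by 1.85 ± 0.39 on the log2 scale (SE, adjusted p = 0.0028), a call that was lost without those mice (-0.76, adjusted p = 0.102).

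*Nr1d1*, which encodes the repressor REV-ERB alpha, measured 157, 237, 161 and 160 CPM in fat-1 PF and 130, 143, 79.7, 73.2 and 129 CPM in fat-1 EtOH mice. The groups did not overlap, and the lowest values were in fat-1 EtOH mice 3 and 4, which had high large intestine genes. The log2 fold change was -0.69 ± 0.20 (SE, adjusted p = 0.0146). Non-overlapping groups were found for 2 of the 10 clock genes, *Dbp* and *Nr1d1*, against 24.0% of all genes tested. *Nr1d2*, its paralog, measured 138, 164, 142 and 158 CPM against 103, 152, 133, 98.7 and 88.4 CPM, with overlap. Its log2 fold change of -0.38 ± 0.14 was the smallest that passed (SE, adjusted p = 0.0407). By exact permutation of the 126 splits, unadjusted p was 0.0159 for *Nr1d1*, 0.0476 for *Tef* and 0.0714 for *Nr1d2*.

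*Arntl*, the essential activator, was the only member with a positive estimate. It measured 17.3, 12.2, 13.8 and 10.6 CPM in fat-1 PF and 21.3, 25.4, 8.86, 12.2 and 20.6 CPM in fat-1 EtOH mice. EtOH mice 1, 2 and 5 lay above every PF mouse, whereas mice 3 and 4 lay within or below the PF range. The log2 fold change of 0.39 (95% interval -0.20 to 0.98) did not pass the test (adjusted p = 0.277). *Npas2*, which can stand in for CLOCK, was also lowest in mice 3 and 4, at 11.7 and 14.2 CPM, against 22.0 to 33.1 CPM in the other 3 EtOH mice of this genotype and 20.9 to 30.2 CPM under PF feeding. Its log2 fold change was -0.40 (95% interval -0.88 to 0.09, adjusted p = 0.183). It was -0.047 without fat-1 EtOH mice 3 and 4, and it passed without fat-1 EtOH mouse 2 (-0.63, adjusted p = 0.0168).

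The repressors had wide intervals that included 0. *Per2* ranged from 43.6 to 113 CPM under PF feeding and from 27.8 to 77.3 CPM under EtOH feeding, with a log2 fold change of -0.38 (95% interval -1.03 to 0.28) that was -0.0018 without fat-1 PF mice 2 and 4. *Per1* gave -0.18 (-0.73 to 0.37) and *Per3* -0.20 (-0.87 to 0.48) on the same scale. Without fat-1 PF mice 2 and 4 both changed sign, to 0.31 for *Per1* and 0.39 for *Per3*. The narrowest interval of the repressors was that of *Cry1*, at -0.16 (-0.52 to 0.19). *Cry1* ranged from 20 to 27.9 CPM in PF and from 14.5 to 24.9 CPM in EtOH mice. Adjusted p for these genes lay between 0.347 for *Per2* and 0.642 for *Per3*, which does not show that their levels were alike.

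The calls depended on which mice were included. Without fat-1 PF mice 2 and 4, 0 of the 10 clock genes were called by edgeR in fat-1 mice, and the number called over all genes also dropped, to 1965 of 14100. The log2 fold change of *Dbp* was then -0.67 (adjusted p = 0.102), of *Tef* -0.26 (0.336), of *Nr1d1* -0.51 (0.144) and of *Nr1d2* -0.28 (0.277). Leaving out fat-1 PF mouse 2 alone kept *Dbp* only, and leaving out fat-1 PF mouse 4 alone kept *Dbp* and *Nr1d1*. The call of *Nr1d2* held in 7 of 16 fits that each left out 1 mouse, against 16 for *Dbp*, 15 for *Nr1d1* and 14 for *Tef*. Without fat-1 EtOH mice 3 and 4, *Dbp* (-1.57, adjusted p = 0.00892) and *Tef* (-0.74, adjusted p = 0.00893) stayed lower and *Arntl* became higher (0.76 ± 0.21, SE, adjusted p = 0.0164), whereas without fat-1 PF mice 2 and 4 *Arntl* was at 0.19 (adjusted p = 0.719). Without fat-1 EtOH mice 3 and 4 *Nr1d1* had a log2 fold change of -0.39 (adjusted p = 0.0647) and *Nr1d2* one of -0.36 (adjusted p = 0.0907). Fat-1 EtOH mouse 5, high in B-cell and adipocyte genes, was the lowest of the 16 mice for *Dbp*, *Tef*, *Nr1d2*, *Per2*, *Per3* and *Cry1*. Without it *Dbp* (-1.29, adjusted p = 0.00692), *Nr1d1* (-0.73, adjusted p = 0.0162) and *Tef* (-0.47, adjusted p = 0.0416) still passed, *Nr1d2* did not (-0.29, adjusted p = 0.10), and *Per2* was at -0.19, *Per3* at -0.016 and *Cry1* at -0.0435.

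**Figure D2:**
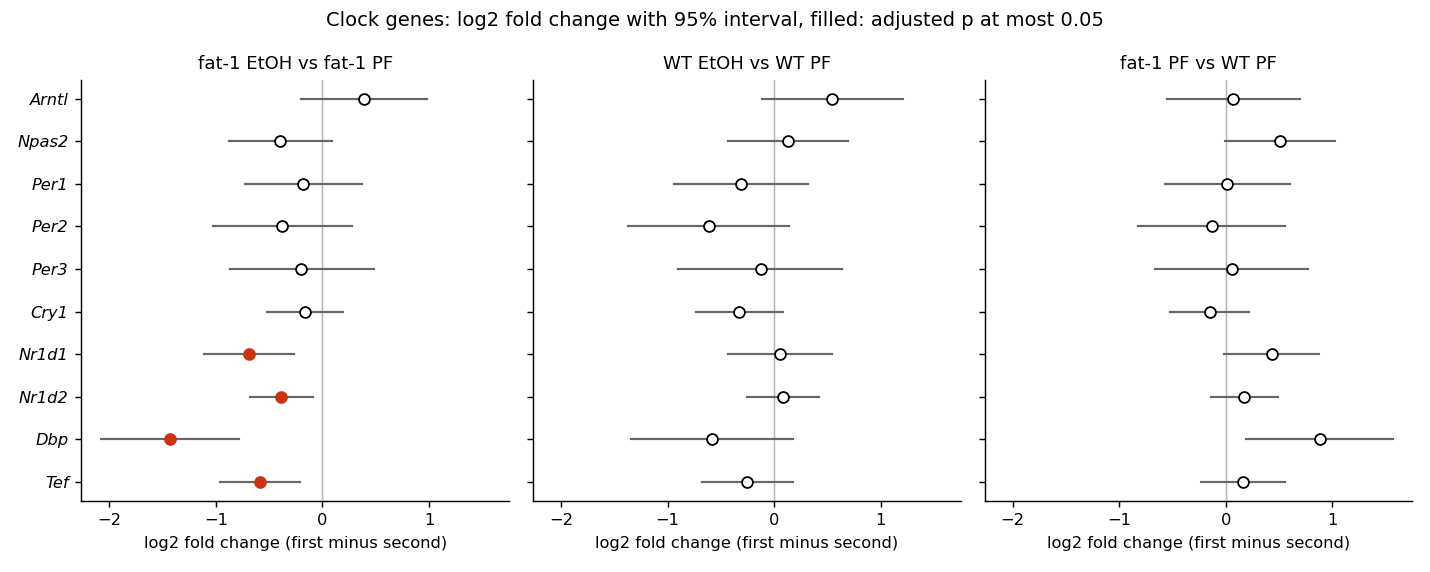
Log2 fold changes (horizontal axes, first group minus second) of the 10 clock genes with 95% intervals in 3 comparisons, filled where the adjusted p was at most 0.05. The filled points are *Nr1d1*, *Nr1d2*, *Dbp* and *Tef* in fat-1 mice, from -0.38 to -1.43, and no point is filled for diet in WT mice or for genotype under PF feeding.

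In WT mice 0 of the 10 clock genes were called by edgeR between EtOH and PF feeding, with a background of 0.0796% (11 genes). None had an unadjusted p under 0.05, the smallest adjusted p was 0.434, and DESeq2 also called 0. *Arntl* measured 11.3, 12.8, 10.6 and 16.7 CPM in WT PF and 17.9, 14.5 and 23.9 CPM in WT EtOH mice, a log2 fold change of 0.55 (95% interval -0.11 to 1.21). Limma voom with sample quality weights gave 0.64 and called it (adjusted p = 0.034), the only such call in WT mice, in a fit that called 2800 of all 13811 genes. *Dbp* measured 121, 90.3, 83.0 and 68.7 CPM against 73.0, 67.5 and 41.6 CPM, a log2 fold change of -0.58 (-1.34 to 0.18). *Per2* had the lowest estimate, -0.62 (-1.37 to 0.14), from 55.1 to 108 CPM in PF mice and from 39.9 to 63.2 CPM in EtOH mice. *Nr1d1* (0.06, interval -0.43 to 0.54) and *Nr1d2* (0.08, interval -0.25 to 0.42) had estimates near 0. *Tef* measured 184, 181, 192 and 151 CPM against 163, 156 and 128 CPM (-0.25, interval -0.68 to 0.18). Without WT EtOH mouse 2 and fat-1 EtOH mice 3 and 4, still 0 of the 10 were called, with *Arntl* at 0.70, *Dbp* at -0.66 and *Per2* at -0.47.

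Averaging the diet effect over genotypes, which reuses the mice of both comparisons, 2 of the 10 genes were called and both were lower, against a background of 35.9% called and 17.6% called lower. *Dbp* fell 2.01-fold (log2 fold change -1.005 ± 0.24, SE, adjusted p = 0.0053), and without fat-1 PF mice 2 and 4 it still fell, by 0.62 on the log2 scale (adjusted p = 0.0309). *Tef* fell 1.33-fold (-0.42 ± 0.13, SE, adjusted p = 0.0266), a call that was lost without those mice (-0.25, adjusted p = 0.159) and in 6 of 16 fits that left out 1 mouse, those of WT PF mouse 1, 2 or 3, fat-1 PF mouse 2 or 4, or WT EtOH mouse 3. *Arntl* had a log2 fold change of 0.47 ± 0.21 and did not pass (adjusted p = 0.0895). Without fat-1 EtOH mice 3 and 4 it rose by 0.66 ± 0.15 (SE, adjusted p = 0.00456), and *Arntl* also passed with upper-quartile scaling (adjusted p = 0.0426), which lost the call of *Tef*, and with limma voom (adjusted p = 0.0073). Without fat-1 PF mice 2 and 4 it was 0.37 (adjusted p = 0.270). *Nr1d1* (-0.32, adjusted p = 0.114) and *Per2* (-0.50, adjusted p = 0.111) did not pass.

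Genotype was compared within each diet. Under PF feeding 0 of the 10 genes were called by edgeR between the genotypes, with a background of 0.0% and 1758 genes at an unadjusted p under 0.05. DESeq2 called 189 genes here and limma voom 31, none of them a clock gene. DESeq2 gave no adjusted p for 6427 genes, among them 1 clock gene, which it therefore could not call. The difference was largest for *Dbp*, which averaged 167 ± 84.0 CPM in fat-1 PF (SD, n = 4) and 90.7 ± 22.0 CPM in WT PF mice (SD, n = 4), a log2 fold change of 0.88 (95% interval 0.19 to 1.57, adjusted p = 0.270). It fell to 0.11 without fat-1 PF mice 2 and 4. *Npas2* measured 29.7, 27.7, 20.9 and 30.2 CPM in fat-1 PF and 19.5, 19.5, 20 and 17.1 CPM in WT PF mice. Every fat-1 value of *Npas2* and *Nr1d1* lay above every WT value, a pattern shown by 2 of 10 clock genes and 6.87% of all genes in either direction. Their log2 fold changes were 0.51 (-0.01 to 1.03, adjusted p = 0.401) for *Npas2* and 0.43 (-0.02 to 0.88, adjusted p = 0.409) for *Nr1d1*. Without fat-1 PF mice 2 and 4 they were 0.41 for *Npas2* and 0.26 for *Nr1d1*.

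Under EtOH feeding 0 of the 10 genes were called by edgeR between the genotypes, with a background of 0.00724%, 0 clock genes at an unadjusted p under 0.05, and 0 called by DESeq2. *Nr1d1* (-0.31) and *Nr1d2* (-0.29) had the lowest log2 fold changes. *Nr1d1* was at 79.7 and 73.2 CPM in fat-1 EtOH mice 3 and 4 and at 129 to 143 CPM in mice 1, 2 and 5. In WT EtOH mice *Nr1d1* was at 133 to 145 CPM. *Nr1d2* was at 88.4 to 152 CPM in fat-1 EtOH and 129 to 159 CPM in WT EtOH mice. *Dbp* was nearly level, at 62.0 ± 15.0 CPM (SD, n = 5) in fat-1 EtOH and 60.7 ± 16.8 CPM (SD, n = 3) in WT EtOH mice. The interaction of genotype and diet, which asks whether the diet effect differed between genotypes, called 0 clock genes by edgeR against a background of 0.0%, and DESeq2 also called 0. At an unadjusted p under 0.05 there were 2 clock genes, beside 1141 of all 13811 genes: *Nr1d1* (-0.75, interval -1.39 to -0.11) and *Nr1d2* (-0.47, interval -0.92 to -0.02), both with an adjusted p of 0.595. Without fat-1 EtOH mice 3 and 4 the interaction of *Nr1d1* was -0.45 (adjusted p = 0.574), and without fat-1 PF mice 2 and 4 that of *Dbp* moved from -0.85 to -0.096. The lower levels in fat-1 mice are thus not shown to be a response that WT mice lacked.

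Segment marker genes moved with the diet and with several clock genes. Between fat-1 EtOH and fat-1 PF mice, 6 of 6 proximal small intestine genes were called lower and 5 of 5 large intestine genes tested were called higher. Smooth muscle genes were called higher for 6 of 6 and enteric neuron genes for 5 of 6. Of all 13811 genes, 18.8% were called lower and 2578 were called higher. In lists of 6 genes each, 2 ileal epithelium genes and 1 adipocyte gene were called lower, and 0 B-cell follicle genes were called. Summed smooth muscle genes were at 906 to 1360 CPM under PF feeding and at 1860 to 4040 CPM under EtOH feeding. Summed proximal genes were at 209 to 3340 CPM in WT and 1830 to 11400 CPM in fat-1 mice under PF feeding, and at 33.3 to 41.7 CPM in WT and 9.55 to 39.9 CPM in fat-1 mice under EtOH feeding. Among the 8 PF mice the order of *Dbp* was the order of the summed proximal genes (Pearson r = 0.901, exact permutation p = 2.23e-04, adjusted p = 0.00223 over the 10 clock genes). Spearman rho was 1.0 (exact permutation p = 4.96e-05, adjusted p = 4.96e-04), and r was 0.989 without WT PF mouse 4 and fat-1 PF mouse 2, the mice farthest from the median. This relation was computed after the values had been seen.

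The same relation passed on r for *Nr1d2* (r = 0.908, exact permutation p = 0.00221, adjusted p = 0.011), *Npas2* (r = 0.813, exact permutation p = 0.00761, adjusted p = 0.0254) and *Tef* (r = 0.796, exact permutation p = 0.0169, adjusted p = 0.0423). Without the farthest mice r was 0.852, 0.752 and 0.651. On ranks none of these passed, with rho of 0.786, 0.643 and 0.619 and adjusted p of 0.14, 0.23 and 0.23 by exact permutation. *Per2* showed no such relation (r = 0.104, rho = -0.048, exact permutation p = 0.814 and 0.935). In the 8 EtOH mice the proximal genes were at 41.7 CPM or less and *Dbp* at 75.8 CPM or less. The part of segment composition in the clock gene differences was not tested.

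**Figure D3:**
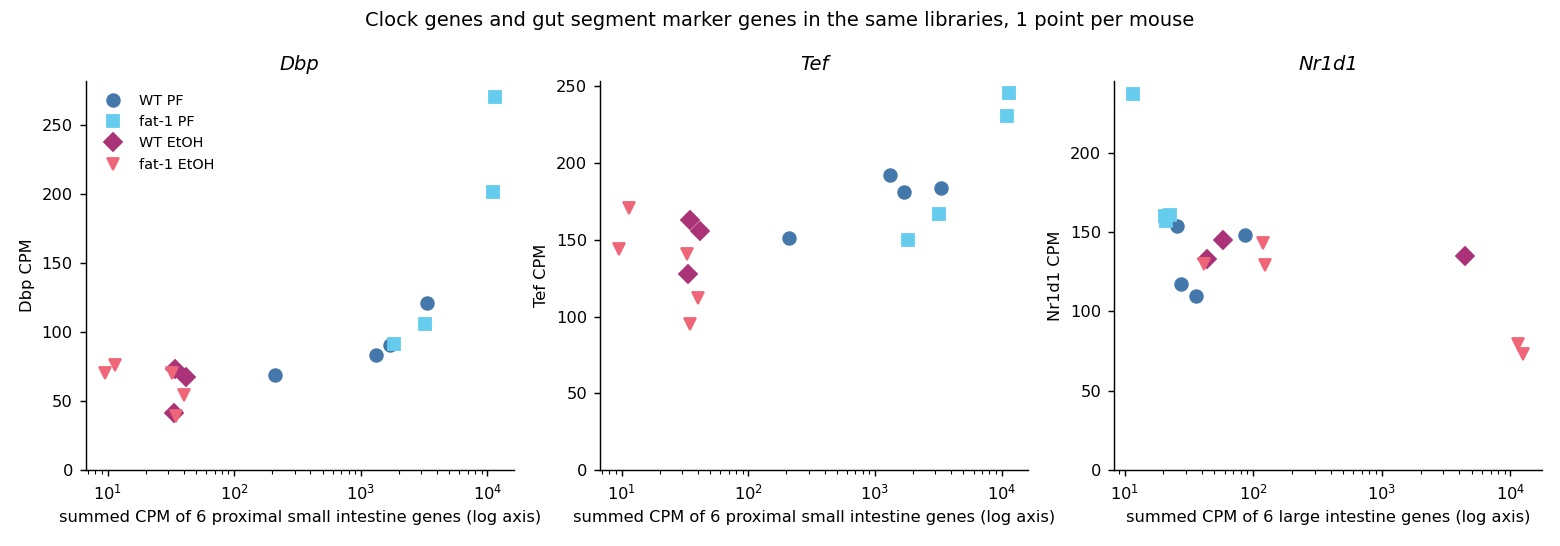
*Dbp*, *Tef* and *Nr1d1* in CPM (vertical axes, from 0) against the summed CPM of 6 proximal or 6 large intestine genes (horizontal log axes), 1 point per mouse. *Dbp* reaches 270 and 201 CPM in the fat-1 PF mice with 11400 and 11100 CPM of proximal genes, and *Nr1d1* is lowest, at 79.7 and 73.2 CPM, in the fat-1 EtOH mice with 11500 and 12500 CPM of large intestine genes.

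Counts of 4 members may be affected by overlapping neighbours on the opposite strand, because the strand setting of the counting is not given in the sources used here. Exons of *Dbp* overlap those of *Sphk2* on the opposite strand over 539 bases (18.01% of its exon length), and *Nr1d1* overlaps *Thra* over 263 bases (8.55%). *Tef* and *Arntl* overlap antisense genes over 193 bases (2.45%) and 33 bases (0.44%), which were not analysed here. *Sphk2* and *Thra* were also lower in fat-1 EtOH than in fat-1 PF mice. *Sphk2* had a log2 fold change of -0.61 ± 0.12 (SE, adjusted p = 0.00176) and *Thra* one of -0.69 ± 0.16 (SE, adjusted p = 0.00532). The fall of *Dbp* was the larger of that pair, while *Nr1d1* and *Thra* fell by nearly the same amount. The effect of the overlaps on these values was not tested.

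Pairs of clock genes were compared across mice within each diet, on log2 CPM. Of 45 pairs, 6 had an adjusted p of 0.05 or less in EtOH mice, all positive, and 0 did in PF mice (exact permutation of 8 mice). In EtOH mice *Per3* rose and fell with *Cry1* (r = 0.963, exact permutation p = 1.49e-04, adjusted p = 0.00335, and r = 0.980 without the farthest pair of mice), with a rho of 0.952 (exact permutation p = 0.00114, adjusted p = 0.0251). *Per3* also followed *Tef* (r = 0.955, rho = 0.929) and *Dbp* (r = 0.923, rho = 0.952), and *Cry1* followed *Dbp* (r = 0.912, rho = 0.929) and *Tef* (r = 0.896, rho = 0.857). On ranks 4 of these pairs passed, and *Cry1* with *Tef* did not (adjusted p = 0.0804, exact permutation). All 5 kept an r of 0.659 or more without the farthest pair of mice.

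The sixth pair was that of the activators. *Arntl* followed *Npas2* in EtOH mice (r = 0.867, exact permutation p = 0.00355, adjusted p = 0.0266), but rho was 0.667 (adjusted p = 0.288) and r fell to 0.477 without fat-1 EtOH mice 3 and 4, so the relation rested in part on those mice. With WT EtOH mouse 2 left out as well, r was 0.771 over 5 mice. In PF mice the same pair had r = -0.067. In PF mice the smallest adjusted p on r was 0.0521 (exact permutation), for *Nr1d2* with *Dbp* (r = 0.947), *Per1* with *Per3* (r = 0.896) and *Per3* with *Tef* (r = 0.877). Without fat-1 PF mice 2 and 4 these r were 0.665, 0.79 and 0.878. *Arntl* and *Per3* had negative r in both diets, at -0.717 in PF (adjusted p = 0.158, exact permutation) and -0.674 in EtOH mice (adjusted p = 0.213, exact permutation), where it was -0.319 without fat-1 EtOH mice 3 and 4. Over all 16 mice, which mixes the diets, 15 of 45 pairs passed (100000 permutations), of which 11 were positive, and the negative ones all joined *Arntl* to *Per1*, *Per3*, *Dbp* or *Tef*. *Arntl* with *Per3* then had r = -0.678 (permutation adjusted p = 0.0238), with rho at -0.665 (permutation adjusted p = 0.0318), -0.768 for r without the farthest pair of mice and -0.689 with group means removed. *Arntl* with *Tef* had r = -0.703 (permutation adjusted p = 0.0145). Within diets r was -0.673 in PF and -0.591 in EtOH mice, and neither passed (adjusted p = 0.219 and 0.29, exact permutation). In EtOH mice r was -0.411 without fat-1 EtOH mice 3 and 4, and -0.129 in the 5 mice that lacked high large intestine genes. Among the positive pairs over 16 mice was *Npas2* with *Nr1d1* (r = 0.764, permutation adjusted p = 0.0081). On ranks it did not pass (rho = 0.591, permutation adjusted p = 0.0667). Within diets its r was 0.621 in PF and 0.849 in EtOH mice (adjusted p = 0.266 and 0.0649, exact permutation). *Arntl* with *Nr1d1* had r = 0.205 over 16 mice, -0.069 in PF and 0.847 in EtOH mice (adjusted p = 0.0678, exact permutation). *Cry1* and *Dbp* had r = -0.401 in PF and 0.912 in EtOH mice, a difference between diets that was not tested. In the 5 EtOH mice that lacked high large intestine genes r was 0.949 for *Per3* with *Cry1* and 0.907 for *Cry1* with *Dbp*. So few mice allow too few orders for a few strong pairs to pass adjustment over 45, so no test is drawn from them.

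**Figure D4:**
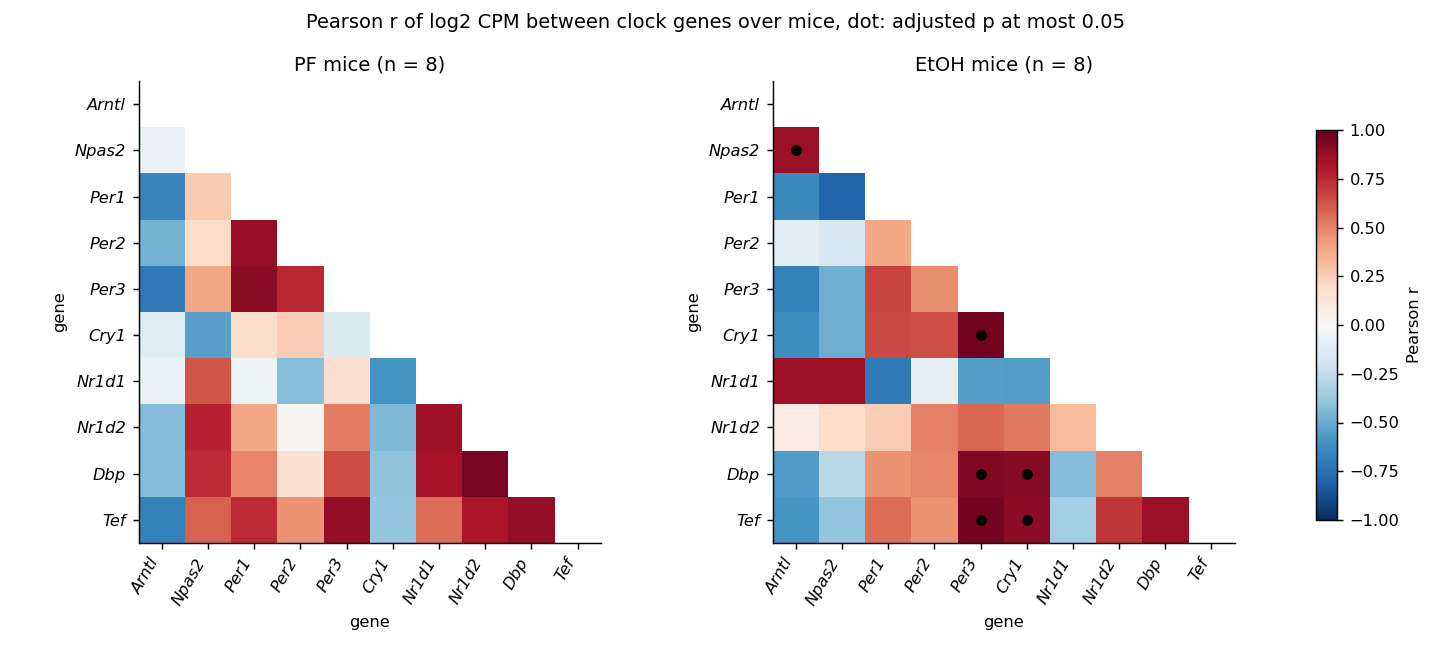
Pearson r of log2 CPM for each pair of the 10 clock genes (both axes list genes) over the 8 PF mice and the 8 EtOH mice, from -1 in blue to 1 in red, with a dot where the adjusted p was at most 0.05. The 6 dots lie in the EtOH panel, and 5 of them join *Per3* or *Cry1* with each other, *Dbp* or *Tef*.

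A ratio of genes within a library does not depend on how libraries are scaled. The log2 ratio of *Arntl* to its repressor gene *Nr1d1*, chosen after the values had been seen and given with no test, was -3.71, -3.59, -3.39 and -2.81 in WT PF mice and -3.18, -4.28, -3.55 and -3.92 in fat-1 PF mice. It was -2.9, -3.22 and -2.60 in WT EtOH mice and -2.61, -2.49, -3.17, -2.58 and -2.64 in fat-1 EtOH mice. The fat-1 groups touched without overlapping, with nearest values of -3.18 and -3.17, and the WT groups overlapped. Of the 4 ratios computed, those of *Arntl* to *Dbp*, *Tef* and *Per2* overlapped between the fat-1 groups. The ratio to *Dbp*, for example, was -4.46 to -2.62 in PF and -3.10 to -0.93 in EtOH mice of this genotype. In WT mice the ratio to *Per2* did not overlap (-3.36 to -2.11 in PF, -1.82 to -1.07 in EtOH). In fat-1 EtOH mice 3 and 4 *Arntl* and *Nr1d1* were both low. The ratio to *Nr1d1* matched those of mice 1, 2 and 5 in mouse 4 (-2.58) but not in mouse 3 (-3.17).

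Other clock genes came from a list of 17 of which 16 were tested (*Rorb* was not). Between fat-1 EtOH and PF mice 2 were called higher and 3 called lower, with a median log2 fold change of 0.08. The share called was below the 37.4% of all genes. *Rora*, an activator of *Arntl*, measured 3.50, 3.65, 4.78 and 4.05 CPM in fat-1 PF and 9.12, 6.55, 8.61, 7.76 and 10.1 CPM in fat-1 EtOH mice, without overlap. It rose 2.11-fold (log2 fold change 1.08 ± 0.17, SE, adjusted p = 5.01e-04) and rose by 1.03 without fat-1 PF mice 2 and 4 (adjusted p = 0.016). *Csnk1e*, a kinase that phosphorylates PER proteins, rose by 0.54 ± 0.12 (SE, adjusted p = 0.00331), and its relative *Csnk1d* fell by 0.28 ± 0.08 (SE, adjusted p = 0.0142). Besides *Hlf*, *Fbxw11*, a ubiquitin ligase subunit, fell by 0.18 (adjusted p = 0.0409). The calls of *Csnk1d* and *Fbxw11* were lost both without fat-1 PF mice 2 and 4 and without fat-1 EtOH mice 3 and 4. *Clock*, the partner of *Arntl*, differed little (0.17, interval -0.05 to 0.39), as did *Cry2* (0.22, interval -0.14 to 0.59). Averaged over genotypes, *Arntl2*, a paralog of *Arntl*, had 3 to 37 counts per library and was also higher (0.89, adjusted p = 0.0464). That call held in 6 of 16 fits that left out 1 mouse, with adjusted p up to 0.122, and was lost without fat-1 PF mice 2 and 4 (0.67, adjusted p = 0.159). In WT mice 0 of 16 were called by edgeR, with 2 at an unadjusted p under 0.05.

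Of 6 clock output genes, 4 were called lower and 0 higher with EtOH in fat-1 mice, with a median log2 fold change of -0.68. Of all genes, 37.4% were called and 18.8% were called lower. *Usp2*, a deubiquitinase with a strong daily rhythm in many tissues, fell by 0.83 ± 0.17 (SE, adjusted p = 0.00272). *Tsc22d3*, which is also induced by glucocorticoids, fell by 1.14 ± 0.20 (SE, adjusted p = 9.86e-04), and *Nampt*, the rate-limiting enzyme of NAD salvage, fell by 0.54 ± 0.10 (SE, adjusted p = 9.86e-04). *Por*, the reductase that serves cytochrome P450 enzymes, fell by 1.06 ± 0.24 (SE, adjusted p = 0.00451). Without fat-1 PF mice 2 and 4, *Usp2*, *Tsc22d3* and *Nampt* still passed (adjusted p = 0.0493, 0.0298 and 0.0343), while *Por* did not (adjusted p = 0.111). *Wee1* had a log2 fold change of -0.42 and *Tspan4* one of -0.05, and neither passed. In WT mice 0 of 6 were called by edgeR and 3 had an unadjusted p under 0.05, as did 1953 of all 13811 genes. All 6 estimates were negative there, from -0.13 for *Wee1* to -0.83 for *Tsc22d3*.

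**Figure D5:**
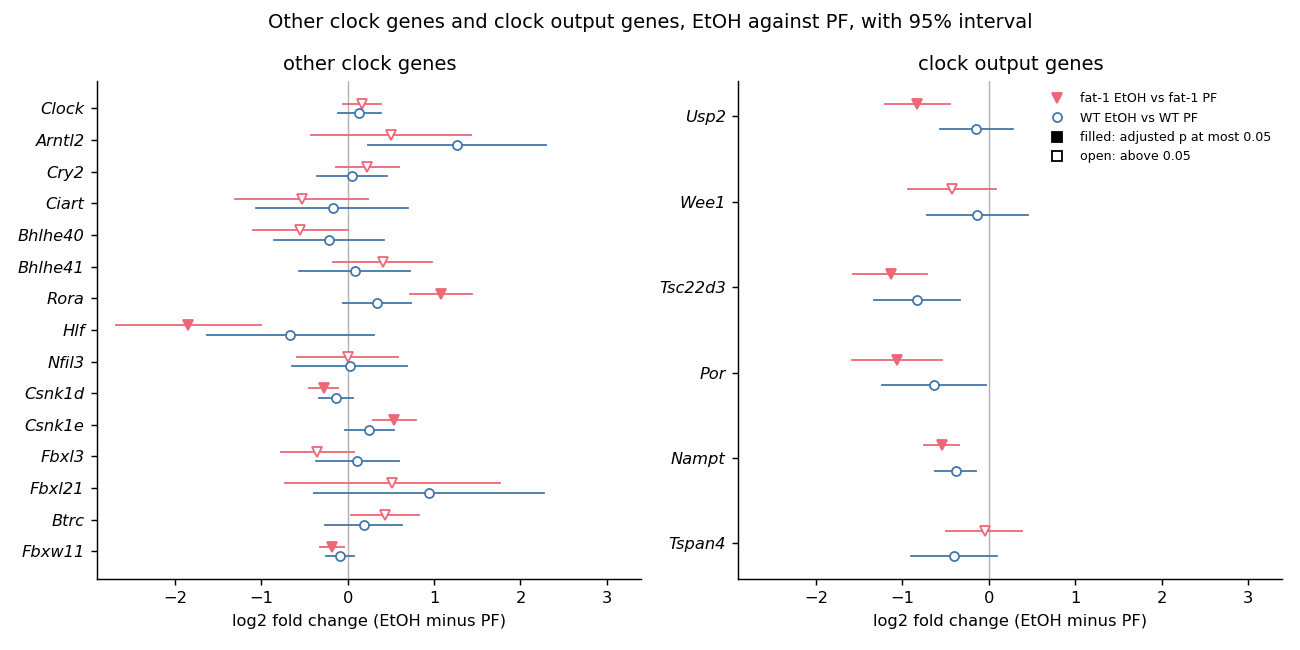
Log2 fold changes (horizontal axes, EtOH minus PF) with 95% intervals of 15 other clock genes and 6 clock output genes in fat-1 mice (triangles) and WT mice (circles), filled where the adjusted p was at most 0.05. In fat-1 mice *Rora* stands at 1.08 and *Hlf* at -1.85, and *Usp2*, *Tsc22d3*, *Por* and *Nampt* lie between -0.54 and -1.14.

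Nutrient transporters with known daily rhythms were called lower in fat-1 EtOH mice for 3 of 4 genes, with 0 called higher, beside 18.8% of all genes called lower. The glucose and fructose transporter *Slc2a2* averaged 14.6 CPM against 707 CPM in fat-1 PF mice (adjusted p = 0.00339), *Slc2a5* 44.3 against 320 CPM (adjusted p = 0.00172) and *Slc5a1* 1060 against 5070 CPM (adjusted p = 0.00711). The 4 genes summed to 219 and 249 CPM in fat-1 EtOH mice 3 and 4 and to 1620 to 2580 CPM in the other 3 EtOH mice, against 9310 and 7880 CPM in fat-1 PF mice 2 and 4 and 5780 and 4350 CPM in fat-1 PF mice 1 and 3. The peptide transporter *Slc15a1* had a log2 fold change of -1.52 (adjusted p = 0.174). These genes are also graded along the small intestine, and the proximal marker genes fell in the same mice. Of 6 glucocorticoid-responsive genes, 1 was called higher in fat-1 EtOH mice, *Klf9* (0.54, adjusted p = 0.0387), beside 2578 of all 13811 genes called higher. Averaged over genotypes *Fkbp5*, *Zbtb16* and *Klf9* were higher (1.16, 1.57 and 0.53), beside 2522 of all genes. The 6 genes summed to 931 and 927 CPM in fat-1 EtOH mice 3 and 4 and to 318 to 517 CPM in mice 1, 2 and 5. Sums above that range were also seen without high large intestine genes. WT PF mice 3 and 4 had sums of 789 and 711 CPM, with large intestine genes at 36.2 and 27.3 CPM. WT EtOH mouse 2, with large intestine genes at 4420 CPM, had the lowest sum of its group (408 CPM, against 502 and 531 CPM). Sums for WT PF mice 1 and 2 were 316 and 403 CPM, and those of the fat-1 PF group ranged from 382 to 544 CPM.

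The genes whose pattern over the 16 libraries was most like *Dbp*, out of 13801 ranked by Pearson r of log2 CPM, were *Ankrd9* (0.977), *Pkm* (0.969), *Odf3b* (0.963), *Ppm1j* (0.957) and *Gstm6* (0.952). *Hlf* ranked 10 (0.943). After the group mean was taken from each value, the highest r were those of *Odf3b* (0.947), *Ankrd9* (0.942), *Pkm* (0.923), *Cgref1* (0.917) and *Tfeb* (0.912), and *Hlf* ranked 13 (0.880). The genes most like *Arntl* were *Cep57l1* (0.907), *Osbpl9* (0.868), *Ndc80* (0.861), *Bub1* (0.851) and *Sass6* (0.846), and with group means removed *Flvcr2* (0.913), *Gas2l3* (0.908), *Ckap2* (0.905), *Rad21* (0.904) and *Prodh* (0.901). The lists for *Dbp* shared 3 of 5 genes between the scales, and those for *Arntl* shared 0 of 5. At the other end, *Rora* had r = -0.846 with *Dbp* and *Ciart*, a repressor of the loop, r = -0.801 with *Arntl*. The libraries share depth and tissue composition, so these r describe likeness only.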

How the data were processed

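RNA from the ileum of 16 mice was sequenced as strand-specific poly(A) libraries. The authors aligned reads to mm10 with TopHat and counted them per Ensembl gene with HTSeq. The deposited values are raw counts, and the strand setting is not given in the sources used here. Genes were matched to GENCODE symbols and exon lengths. The counts were tested with edgeR 4.0.16 (filterByExpr, TMM, robust quasi-likelihood fit of all 16 libraries with 1 mean per group) in R 4.3.3, with Benjamini-Hochberg adjustment over 13811 genes and calls at 0.05. Intervals use the t distribution of that fit. Exact permutation tests used log2(CPM + 0.5), and correlations used log2 CPM with a prior count of 2. Alternatives were DESeq2 1.42.0, limma 3.58.1 voom, other scaling and filters, a replicate block, and fits without single mice. Named genes were the 10 members, called genes of fixed lists and the 5 genes most like *Dbp* and *Arntl*. Members and lists were chosen with earlier results of these data known. The edgeR step was tested on simulated data. Each group holds separate mice, and the lowest chi-square per degree of freedom between mice of a group, 7.57, showed no library deposited more than once within a group. EtOH libraries were numbered after PF libraries, so library order and diet cannot be told apart. The fat-1 transgene was not analysed here. The values of 1 gene of the list of other clock genes are not reported here.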

Additional observations from a re-analysis of the deposited data

Results flagged for a closer look

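In 30 combinations of clock gene and group with 4 or 5 mice, 2 values stood apart from the others of their group, and chance alone flags about 1 in 20. *Cry1* in WT PF mouse 2 was the lowest of its group at 19.1 CPM, against 27.2 to 29.2 CPM in the other WT PF mice. *Nr1d1* in fat-1 PF mouse 2 was the highest of its group at 237 CPM, against 157 to 161 CPM in the other fat-1 PF mice, and this mouse also held the highest proximal small intestine genes. The part of that composition in the *Nr1d1* value was not tested.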

How the results depend on the processing

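The 4 clock genes called in fat-1 mice were also called by DESeq2 and with DESeq2 size factors, and 3 were called under either other count filter. The number was 2 with limma voom, 2 with upper-quartile normalization, 1 with only the groups compared, 2 with the replicate block (*Dbp* and *Nr1d1*) and 0 without fat-1 PF mice 2 and 4, and it ranged from 1 to 5 when single mice were left out. In WT mice it was 1 with limma voom (*Arntl*) and 0 in every other fit. Averaged over genotypes it was 1 without fat-1 PF mice 2 and 4 and 1 to 3 when single mice were left out. Of EtOH pairs, 0 passed with 5 mice, a number too small for a few strong pairs to pass adjustment over 45. Upper-quartile scaling moved the median over all genes tested in fat-1 mice (log2 fold change) from 0.05 to 0.20 and the share of calls that were higher from 49.9% to 69.0%. *Dbp* stayed lower and called in fat-1 mice in each fit that left out 1 mouse (-1.62 to -1.09). Estimates that changed sign were not called in either fit. In fat-1 mice they were *Per1* (0.31 without fat-1 PF mice 2 and 4, and -0.36 to 0.061 when single mice were left out, highest without fat-1 PF mouse 4) and *Per3* (0.0013 with the replicate block, 0.39 without fat-1 PF mice 2 and 4, and -0.38 to 0.071, highest without fat-1 PF mouse 4). In WT mice, when single mice were left out, they were *Per3* (-0.32 to 0.058, highest without WT EtOH mouse 3), *Nr1d1* (-0.0127 to 0.15, lowest without WT PF mouse 3) and *Nr1d2* (-0.014 to 0.14, lowest without WT EtOH mouse 1). Averaged over genotypes they were *Npas2* (0.0435 without fat-1 EtOH mice 3 and 4, and 0.0071 without WT EtOH mouse 2 as well), *Per1* (0.0042) and *Per3* (0.14), both without fat-1 PF mice 2 and 4. The cause was not tested. Same-numbered mice did not deviate together (mean correlation -0.0225 over 21 pairs), so the numbers do not pair them, and averaged over genotypes the block also gave 2 clock genes, *Dbp* and *Nr1d1* in place of *Dbp* and *Tef*. Over all genes, 11 were called in WT mice by edgeR, 257 by DESeq2, 2800 by limma voom and 1103 with only those groups, and 0 to 66 when single mice were left out. Between genotypes under PF feeding the count was 0 to 114 when single mice were left out. In fat-1 mice 5170 genes were called, 3086 with only those groups and 1965 without fat-1 PF mice 2 and 4. The lowest count of a clock gene in a library was 86, for *Arntl*. The fits without several mice were chosen with earlier results of these data known.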
